A study of Homo sapiens with 5 samples.

Results

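The long non-coding RNA (lncRNA) genes LINC02055, AC069277.1, AL356804.1, AL683807.1 and AC090578.1 were described across nuclei of a mixture of lung cancer lines. They were found by their symbols among the 36601 genes of the RNA measurement, and all 5 were present. The genes had been picked because their RNA counts in the 80% portion, described below, were concentrated in 1 group of nuclei, so their distribution over nuclei there is a description and carries no test. The lines A549, HCC827, H838, H1975 and H2228 are 5 established human lines of lung adenocarcinoma. Each was grown on its own in RPMI medium with fetal calf serum, with no drug or genetic change named in the labels, then dissociated, frozen and mixed before nuclei were prepared. The 10x Multiome protocol read RNA and open chromatin (ATAC) under one barcode for each nucleus, and the droplets with the barcoded beads (GEMs) were divided into an 80% and a 20% portion that each gave 1 RNA and 1 ATAC library. The lines were mixed in 1 pool, so no sample holds 1 line alone, and line labels per nucleus were not used here.

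The 80% portion held 6557 nuclei with 95455518 RNA counts (unique molecular identifiers, UMIs) and 63920767 ATAC counts in 158342 peaks, with medians of 13306 UMIs and 8784 ATAC counts per nucleus. In the 20% portion there were 1286 nuclei, 14346346 UMIs and 12850543 ATAC counts in 89384 peaks, with medians of 10540.5 UMIs and 9156.5 ATAC counts. With 1 library of each kind per portion there were no replicates and no difference was tested. Exact Poisson intervals for counts and exact binomial intervals for shares, at 95%, cover counting error only. The portions shared 159 barcodes, and 385 nuclei of the 80% portion and 80 of the 20% portion were called doublets by Scrublet.

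LncRNA genes are transcribed and often spliced like protein-coding genes, but no protein is known to be made from their RNA. Many are made in few tissues or cell states, often from starts that lie in open chromatin, and much of their RNA stays in the nucleus, where a nuclear assay can count it. No function of any of these 5 genes is assumed here. LINC02055 is named as an intergenic lncRNA, while the other names are clone-based placeholders.

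AC069277.1 (ENSG00000189229) lies on the plus strand of chromosome 3, at chr3:6490460-6736750 in GENCODE v44 on hg38, and has 16 of its annotated transcript starts inside the range of starts in the deposited gene table. AL356804.1 (ENSG00000259033) lies on the plus strand at chr14:70255629-70343388, antisense to the protein-coding genes COX16 and SYNJ2BP-COX16. AL683807.1 (ENSG00000223511, LINC02968 in GENCODE v44) lies on the plus strand at chrX:1732584-1763212, in the pseudoautosomal region of the short arm, and overlaps no other annotated gene. The sequence below is shown because it lies in the peak near AL683807.1 whose ATAC counts differed most between nuclei with and without its RNA, as described further on. It has the central 300 bases of that peak on the plus strand of hg38, written 5′ to 3′. Capitals mark matches on either strand to motifs of promoter-proximal elements and of well-known families of transcription factors. The promoter elements searched were the one named after its letters TATAAA, the box for SP and KLF proteins with the letters GGGCGG, and the box for the NF-Y complex with the letters CCAAT. The motif searched for AP-1 was TGANTCA, that for forkhead proteins was TGTTTAC, that for TEAD proteins was GGAATG, that for bHLH proteins was CACGTG, and that for MAF proteins in the antioxidant element was TGACNNNGC. Matches for AP-1 and MAF can overlap.
AL683807.1, upstream peak, chrX:1702618-1702917: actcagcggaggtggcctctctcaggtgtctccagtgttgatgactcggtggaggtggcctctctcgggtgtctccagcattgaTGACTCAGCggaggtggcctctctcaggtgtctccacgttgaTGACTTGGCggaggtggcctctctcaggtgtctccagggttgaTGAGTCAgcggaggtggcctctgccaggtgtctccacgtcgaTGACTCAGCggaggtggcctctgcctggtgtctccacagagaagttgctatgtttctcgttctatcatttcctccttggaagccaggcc

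The peak upstream of AL683807.1 had 58.7% G and C with 11 CpG pairs and was repetitive, with 6 copies of the stretch ggaggtggcctc at a median spacing of 43 bases. The repeats carried 3 AP-1 motifs and 3 MAF motifs, with 2 sites counted in both, and no match to the other motifs was found in this window. Of 158289 peaks of the 80% portion, 33.8% held an AP-1 motif in their central 300 bases, 0.612% held 3 or more, and 16.3% held the MAF motif. These matches are descriptions of letters and say nothing of what is bound.

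Both remaining genes lie on chromosome 8. LINC02055 (ENSG00000254101) spans 1232815 bp of the plus strand at chr8:135859369-137092183, with 33 annotated transcripts and 26 starts inside the deposited range. AC090578.1 (ENSG00000253553) spans 560738 bp of the plus strand at chr8:88326836-88887573, with 13 such starts, and it overlaps MMP16, a membrane-type matrix metalloproteinase gene on the opposite strand. The sources used here do not state whether introns were counted or on which strand, so reads of overlapping antisense genes may not be separable from those of AL356804.1, AC069277.1 or AC090578.1.

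Detection differed widely among the genes. In the 80% portion at least 1 UMI of LINC02055 was found in 1560 nuclei (23.8%, interval 22.8% to 24.8%) and of AC069277.1 in 1564 nuclei (23.9%, 22.8% to 24.9%). AL683807.1 was found in 771 nuclei (11.8%), AL356804.1 in 433 (6.60%) and AC090578.1 in 418 (6.37%). The neighbours in this order at the top, and those at the bottom, had overlapping intervals. In the 20% portion, whose counts the choice of genes did not use, the shares were 23.5% for LINC02055, 23.3% for AC069277.1, 10.7% for AL683807.1, 6.69% for AL356804.1 and 5.13% for AC090578.1. LINC02055 and AC069277.1 changed places there, within their intervals, and the order was otherwise the same.

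The number of UMIs per positive nucleus set the genes apart further. A single UMI was all that was found in 17.4% of nuclei positive for LINC02055 and 14.8% for AC069277.1, but in 67.0% for AL356804.1 and 58.8% for AL683807.1. For AC090578.1 the share was 33.3%. The highest numbers in 1 nucleus were 42 UMIs of AC069277.1, 37 of AL356804.1, 35 of AC090578.1, 22 of LINC02055 and 20 of AL683807.1. After nuclei were thinned to a common 5000 UMIs, without the 101 nuclei below that, detection was 17.8% for LINC02055, 18.4% for AC069277.1, 5.33% for AL683807.1, 2.96% for AL356804.1 and 4.12% for AC090578.1. Nuclei positive for AL356804.1 had a median of 16414 UMIs in all, against 13138 for negative nuclei. For AL683807.1 the medians were 16628 and 12878, whereas for AC090578.1 they were 12774 and 13331. The share of mitochondrial UMIs had a median of 1.04% in nuclei positive for AC090578.1 and 0.615% in the rest, and its part in the detection of this gene was not tested.

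To see where the RNA lay, nuclei of the 80% portion were clustered on all genes but these 5, which gave 5 RNA clusters, numbered 0 to 4, of 2488, 1460, 1449, 833 and 327 nuclei. The landmark genes followed the clusters. The imprinted lncRNA gene MEG3 led in cluster 0, ALDH1A1, a retinal dehydrogenase gene, in cluster 1, the actin-binding gene TAGLN and the matrix protein gene MGP in cluster 3, and EGFR, a receptor kinase gene, in cluster 4. No landmark led in cluster 2. Levels are per-million values (CPM), the UMIs of the gene relative to all UMIs of the cluster, and each is compared across clusters and not between genes.

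LINC02055 reached 292 CPM (285 to 300) in cluster 2, where 92.1% of nuclei were positive. In clusters 0, 1, 3 and 4 it stood at 9.19, 15.4, 11.5 and 7.49 CPM, and 4.14% to 4.92% of nuclei were positive. Cluster 2 was 18.9 times (16.6 to 21.7) above the next and held 87.2% of all its UMIs. AC069277.1 had the same leading cluster, with 369 CPM (360 to 378) and 93.4% of nuclei positive. Its levels in clusters 0, 1, 3 and 4 were 10.3, 16.9, 10.2 and 18.7 CPM, so that cluster 2 was 19.7 times (16.0 to 24.5) above the next. Without the nuclei called doublets, cluster 2 held 98.3% of the UMIs of LINC02055 and 98.8% of those of AC069277.1. Doublets were called in 0.483% of nuclei in cluster 2 and in 4.52% to 10.3% of the other clusters, and the doublet calls used the same RNA counts. In the 20% portion they were called in 5.81% of nuclei in cluster 2 and in 4.58% to 10.5% of the others.

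AL356804.1 and AL683807.1 both led in cluster 3. AL356804.1 stood at 53.8 CPM (50.1 to 57.6) there, with 28.2% of nuclei positive, and at 3.38, 4.74, 1.05 and 7.49 CPM in clusters 0, 1, 2 and 4. This was 7.18 times (5.14 to 10.3) above the next cluster, the smallest ratio of the 5 genes over the RNA clusters. AL683807.1 stood at 89.9 CPM (85.2 to 94.9) in cluster 3, with 54.7% of nuclei positive, which was 11.6 times (10.3 to 13.1) above the next. Its low levels were uneven. In cluster 0 it had 7.76 CPM (6.94 to 8.65) and 11.3% positive nuclei, against 0.271 CPM (0.0738 to 0.693) and 0.274% in cluster 1 and 1.05 CPM (0.640 to 1.62) and 1.31% in cluster 2. The medians were 15406.5 UMIs per nucleus in cluster 0, 9142.5 in cluster 1 and 12670 in cluster 2. In the 20% portion AL683807.1 was found in 9.09% of nuclei of cluster 0, 0.369% of cluster 1 and 2.58% of cluster 2. The shares in clusters 0 and 1 thus differed in the same direction in both portions. Doublets were called in 8.16% of nuclei of cluster 0 and 4.52% of cluster 1 in the 80% portion, and the part of depth, doublets and free RNA in this gap was not tested.

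AC090578.1 led in cluster 4 with 279 CPM (265 to 295), where 91.7% of nuclei were positive, and stood at 1.19, 3.38, 1.31 and 3.31 CPM in clusters 0, 1, 2 and 3. The ratio of 82.6 (62.3 to 112) to the next cluster was the largest of the 5 genes, and 88.5% of its UMIs lay in cluster 4. In the 20% portion, with nuclei given the cluster of the nearest mean profile, the same cluster led for each gene. The ratio to the next cluster was 10.4 for LINC02055, 17.6 for AC069277.1, 8.26 for AL356804.1, 12.03 for AL683807.1 and 76.8 for AC090578.1.

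**Figure D1:**
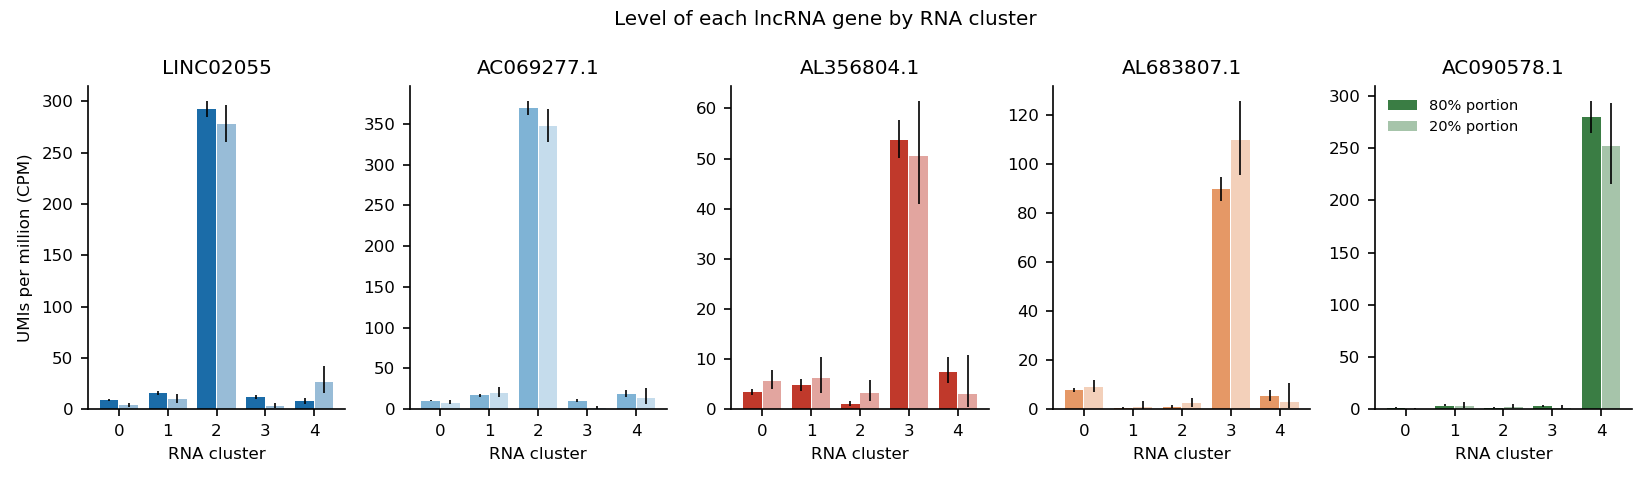
Level of each lncRNA gene (per-million share of UMIs, CPM) in RNA clusters 0 to 4 of the 80% portion (full colour) and the 20% portion (pale), with exact 95% Poisson intervals as bars. LINC02055 and AC069277.1 are high in cluster 2, AL356804.1 and AL683807.1 in cluster 3 and AC090578.1 in cluster 4, in both portions.

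The chromatin divided cluster 3. Clustering on ATAC counts, with peaks within 1 Mb of the 5 genes left out, gave 6 clusters, and the nuclei of RNA cluster 3 fell mostly into ATAC cluster 3 (431 nuclei) and ATAC cluster 4 (350 nuclei). AL683807.1 was positive in 79.1% (75.0% to 82.9%) of the former, at 138 CPM, and in 24.3% (19.9% to 29.1%) of the latter, at 20.8 CPM. AL356804.1 was positive in 43.6% of the former, at 88.3 CPM, and in 9.14% of the latter, at 6.39 CPM. TAGLN and MGP had the opposite pattern, with 8.24 and 14.9 CPM in ATAC cluster 3 and 238 and 132 CPM in ATAC cluster 4. The median depth was 17093 UMIs in ATAC cluster 3 and 14491 in ATAC cluster 4. AC090578.1 and the pair led by RNA cluster 2 were not divided in this way, with 269 CPM for AC090578.1 in ATAC cluster 5, and 288 CPM for LINC02055 and 364 CPM for AC069277.1 in ATAC cluster 2. A further 155 nuclei of RNA cluster 2 lay in ATAC cluster 0, and there LINC02055 stood at 291 CPM and AC069277.1 at 337 CPM. Over the ATAC clusters AL683807.1 had the smallest ratio of the leading to the next cluster, 6.69 (5.52 to 8.16). That of AL356804.1 was 12.2 (8.70 to 17.7).

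Against all genes with at least 100 UMIs, the 5 were at the restricted end by their choice. A ratio of at least 4 between the leading and the next cluster was reached by 6.72% of 16913 genes, by 10.4% of 3275 lncRNA genes and by 5.83% of 13561 protein-coding genes, and by all 5 of these genes. Since they were picked for such values, nothing is read from that count. AC090578.1 ranked 5 of 16913, AC069277.1 113, LINC02055 124, AL683807.1 309 and AL356804.1 596. Of 32 well-studied lncRNA genes, 31 were in the table, 27 had at least 100 UMIs, and 4 reached a ratio of 4. These were the imprinted genes MEG3 (19.9), MEG8 (21.2) and MEG9 (8.95), all led by cluster 0, and CASC15 (4.35), led by cluster 2. The median ratio was 1.45 over the 27, 1.39 over all tested lncRNA genes and 1.28 over all tested genes. MALAT1 and NEAT1, abundant nuclear RNAs, differed little between clusters, with ratios of 1.20 and 1.26.

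**Figure D2:**
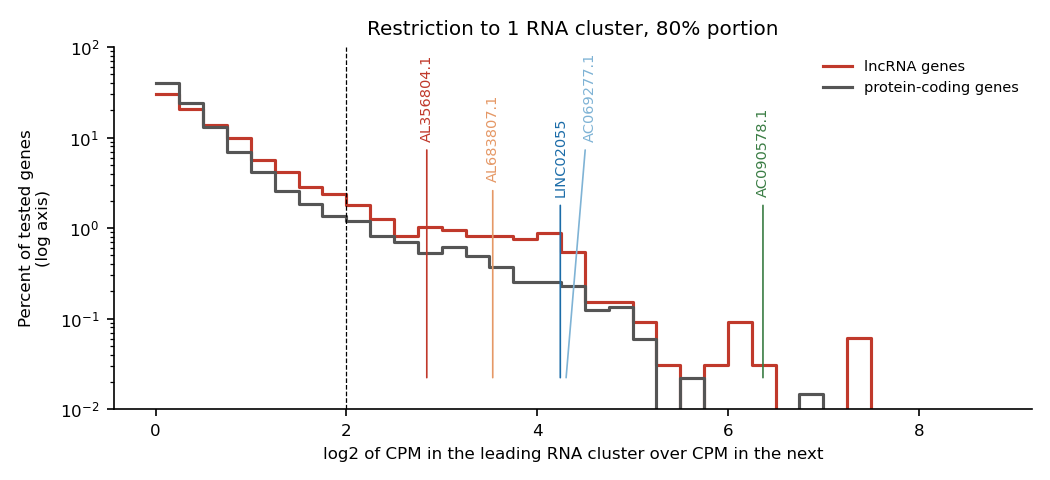
Percent of tested lncRNA and protein-coding genes (log axis) by the log2 ratio of the CPM in the leading RNA cluster over that in the next. The dashed line marks a ratio of 4, which 10.4% of lncRNA and 5.83% of protein-coding genes reached, and the thin line from each name ends at the value of that gene, all to its right.

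Mutual exclusivity was examined pair by pair, as the number of nuclei with a UMI of both genes. Of the 6557 nuclei, 3603 had none of the 5 genes, 1297 had 1, 1532 had 2, 115 had 3, 10 had 4 and 0 had all 5. Thus 56.1% (54.3% to 57.9%) of the 2954 positive nuclei held at least 2 of the genes. Most of these held LINC02055 with AC069277.1, which shared 1407 nuclei where 372 would be expected from the product of their shares. The observed number was 3.78 times (3.59 to 3.98) the expected one and made up 90.2% of nuclei with LINC02055 and 89.96% of nuclei with AC069277.1. AL356804.1 and AL683807.1 shared 176 nuclei, 3.46 times (2.96 to 4.01) the 50.9 expected, which made up 40.6% of nuclei with AL356804.1 and 22.8% of nuclei with AL683807.1.

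The other 8 pairs, whose genes led in different clusters, shared fewer nuclei than expected, with observed over expected values from 0.261 for AC069277.1 with AL683807.1 to 0.869 for AL356804.1 with AC090578.1. For the latter pair the interval, 0.557 to 1.29, included 1. All 8 lay below 1 in the 20% portion too, where they ranged from 0.283 to 0.906, but only 2 of those intervals lay wholly below 1. These were of AL683807.1 with AC069277.1 (up to 0.536) and with LINC02055 (up to 0.572). At 5000 UMIs per nucleus in the 80% portion they ranged from 0.142 to 0.423.

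Nuclei that held genes of different groups (the cluster 2 pair, the cluster 3 pair and AC090578.1) stood out in depth and in doublet calls. The 189 nuclei with genes of 2 groups had a median of 18205 UMIs, and 32.8% (26.2% to 40.0%) of them were called doublets. Among the 2755 nuclei with 1 group the median was 13826 UMIs and 7.66% were called, and among the 3603 with none these were 12700 UMIs and 2.94%. All 3 groups were present in 10 nuclei, of which 6 were called doublets. A deeper nucleus has more chances to hold a UMI of several genes, and the doublet calls used the same RNA counts, these genes included. Depth and doublet calls are therefore not independent of this grouping. When at least 3 UMIs, summed over the genes of a group, were asked for in each group, 11 nuclei held the cluster 2 and cluster 3 groups together, against 63.0 expected. The cluster 2 group and AC090578.1 shared 14 against 49.1, and the cluster 3 group and AC090578.1 shared 5 against 9.12. With doublet calls left out, the 8 values ranged from 0.154 to 0.885.

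**Figure D3:**
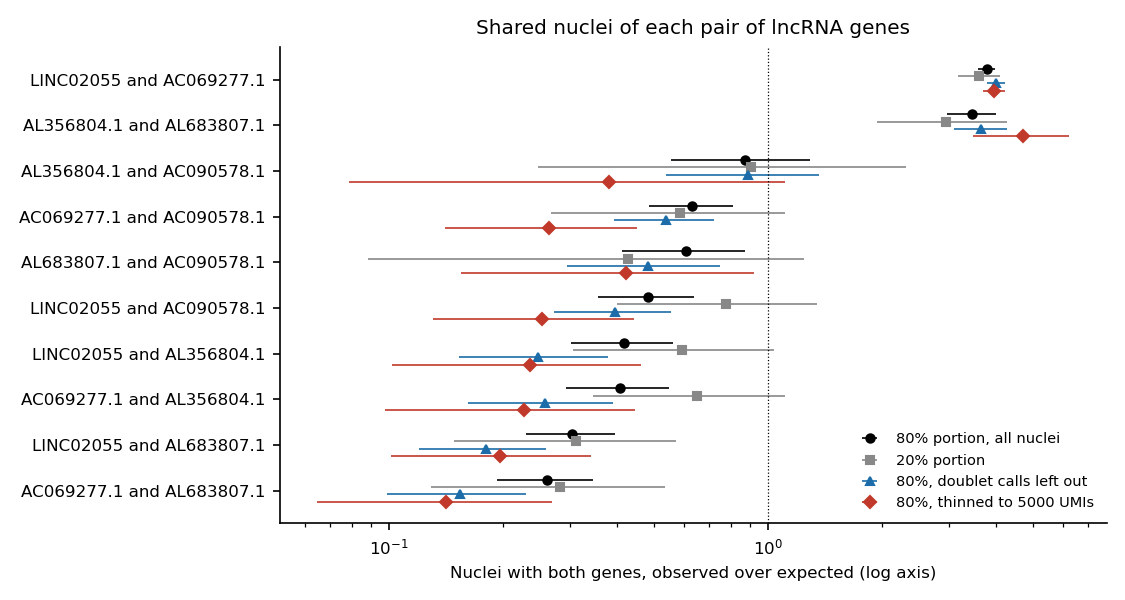
Nuclei that hold both genes of a pair, as observed over expected (log axis), for the 80% portion, the 20% portion, and the 80% portion without doublet calls or thinned to 5000 UMIs, with exact 95% Poisson intervals. The pairs LINC02055 with AC069277.1 (3.78) and AL356804.1 with AL683807.1 (3.46) lie above 1 and the other 8 below it.

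Within the leading cluster the shared nuclei were closer to the expected number. In cluster 2, LINC02055 and AC069277.1 shared 1255 nuclei where 1246 would be expected, a value of 1.01, and 17 of its 1449 nuclei had neither. With 92.1% and 93.4% of these nuclei positive, the shared number was bound to lie near the expected one. Nothing is therefore read from the value of this pair. In cluster 3, AL356804.1 and AL683807.1 shared 154 nuclei against 129 expected (1.20). Among the 431 nuclei that were also in ATAC cluster 3 they shared 140 against 149 expected (0.941), so the 2 genes were found together about as often as their shares give once the chromatin clusters were separated.

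ATAC counts near the starts were then compared between nuclei with and without a UMI of each gene. ATAC was not used to pick the genes, although it was read in the same nuclei, and most ATAC values were even (90.1%), as a count of 2 ends per fragment would give, so that the Poisson intervals of ATAC counts are too narrow. Values are per-million shares (ATAC CPM) of the ATAC counts of the same nuclei that lay in the peaks within 50 kb of the annotated starts, and their ratios.

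For AC069277.1 the 2 peaks in the window stood at 13.9 ATAC CPM in positive and 0.408 in negative nuclei, a ratio of 34.2 (21.7 to 56.7), and 32.8 when each peak was counted once per nucleus. Both peaks lay on starts. The peak on the downstream start had a ratio of 48.9 and that on the upstream start one of 23.2. By RNA cluster, the former had 10.7 ATAC CPM in cluster 2 and 0.239, 0.177, 0.592 and 0 in clusters 0, 1, 3 and 4. In the 20% portion only the downstream start had a peak, with 39 counts in positive nuclei and 0 in negative ones. The ratio was 53.1 with the 0 set to a floor of 3 counts over all negative nuclei. The exact lower limit was 41.2, and 19.1 with the peak counted once per nucleus.

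For LINC02055 the 7 peaks in the window stood at 24.8 ATAC CPM in positive and 2.17 in negative nuclei, a ratio of 11.4 (9.17 to 14.3). A peak on a start, at chr8:136530228-136531048, had a ratio of 61.8 and 11.7 ATAC CPM in cluster 2 against 0 to 0.394 in the others. The second start peak, at chr8:136789149-136790023, had a ratio of 25.6 on 43 counts. The 3 further peaks above 4 had 36, 101 and 16 counts. The remaining 2 peaks, at ratios of 1.04 and 1.66, were nearly alike in both sets of nuclei. The ratio was 18.1 (9.52 to 37.2) in the 20% portion, and 30.9 with peaks within 10 kb only.

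For AL356804.1 the 4 peaks stood at 51.0 ATAC CPM in positive and 15.7 in negative nuclei, a ratio of 3.25 (2.83 to 3.73). The peak on its start had a ratio of 4.30 and the intronic peak at chr14:70257287-70258172 one of 4.10. The start peak was less confined to cluster 3 than the RNA, which stood at 53.8 CPM there and at 1.05 to 7.49 CPM elsewhere. The peak had 37.0 ATAC CPM in cluster 3, 11.4 in cluster 1, 5.96 in cluster 4, 2.56 in cluster 0 and 1.71 in cluster 2. By ATAC cluster it stood at 45.9 in cluster 3 and 25.5 in cluster 4, a smaller gap than that of the RNA. The 20% portion had only 2 peaks in the window, with a ratio of 1.94 (1.23 to 2.95). With each of them counted once per nucleus it was 1.61 (0.771 to 3.04), an interval that included 1.

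For AL683807.1 the 11 peaks stood at 36.9 ATAC CPM in positive and 21.9 in negative nuclei, a ratio of 1.68 (1.497 to 1.89). No peak lay on a start. The peak at chrX:1702339-1703197, 29387 bp from the nearest start and outside the gene, had a ratio of 12.4 (8.02 to 19.7), while the other 10 ranged from 0.765 to 2.89. This is the repetitive window with the AP-1 motifs. It stood at 13.7 ATAC CPM in ATAC cluster 3 and 0.515 in ATAC cluster 4, as the RNA of the gene did in direction. The 20% portion, whose peaks were called separately, had a peak at the same place with a ratio of 12.3 (4.98 to 33.3).

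For AC090578.1 the 7 peaks stood at 6.37 ATAC CPM in positive and 7.44 in negative nuclei, a ratio of 0.856 (0.582 to 1.22). The single peaks had ratios from 0 to 1.74. The peak on its start at chr8:88327124-88327991, which also overlaps MMP16, had a ratio of 1.19 (0.525 to 2.36). It was highest in RNA cluster 1, with 2.65 ATAC CPM against 1.56 in cluster 4, where the RNA led. Each other peak of the window was highest in cluster 3, such as chr8:88298275-88299133 with 5.52 there and 0.518 in cluster 4. The direction was turned in the 20% portion, with a ratio of 1.86 (0.770 to 3.89) on 8 counts in positive nuclei, and both intervals included 1. That portion had 3 peaks in the window and none on a start, so the values of the portions cover different peaks. Peaks further inside the gene were different. Of the 9 peaks in its span, 2 had at least 100 ATAC counts. Both had a ratio of at least 4, which 1.53% of all peaks of that depth reached. The intronic peak at chr8:88843493-88844419 had a ratio of 28.5 (19.1 to 43.5). It stood at 22.6 ATAC CPM in cluster 4, 2.27 in cluster 3 and 0.214 to 0.353 in the other clusters. The intronic peak at chr8:88715390-88716294 had a ratio of 6.22, with 52.9 ATAC CPM in cluster 4 and 33.5 in cluster 3. With all starts of GENCODE v44, which add 1 further start inside the gene, the ratio of the window was 3.53 (3.06 to 4.06).

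**Figure D4:**
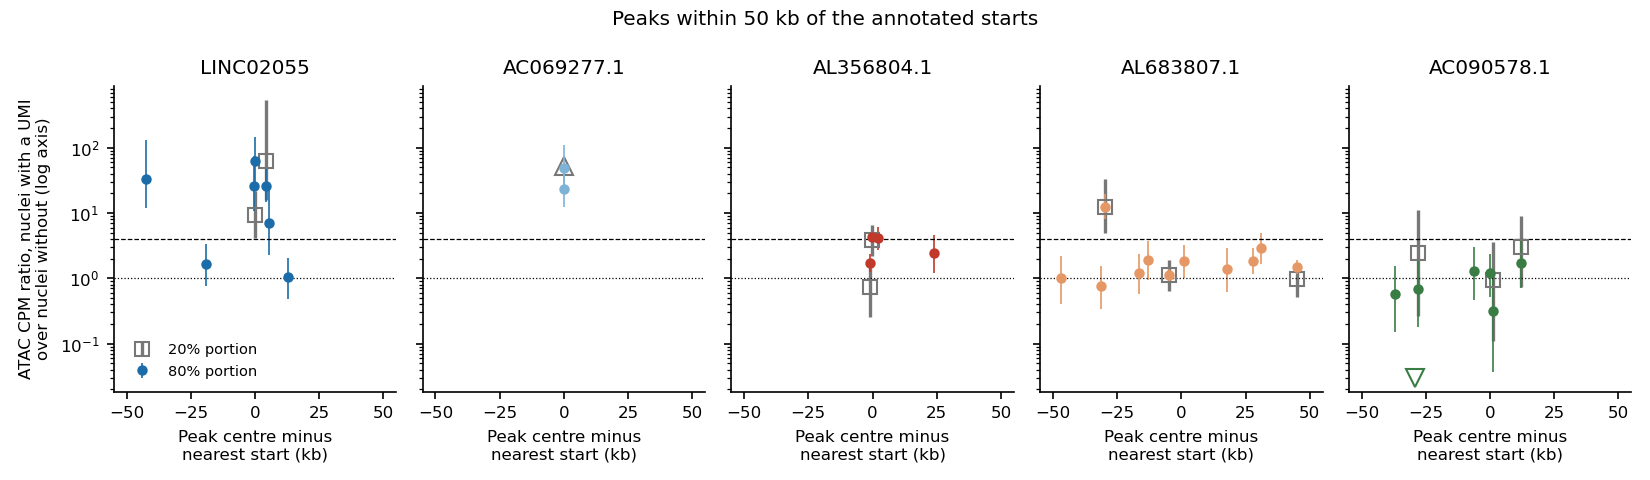
ATAC CPM ratio between nuclei with and without a UMI of the gene (log axis) for each peak within 50 kb, by the distance of its centre from the nearest annotated start in kb. Circles are the 80% portion and open squares the 20% portion, with exact 95% intervals, the open upward triangle is a lower bound (0 counts in negative nuclei) and the open downward triangle a ratio of 0, and lines mark ratios of 1 and 4. Peaks on the starts of AC069277.1 (23.2 and 48.9) lie far above those of AC090578.1, whose highest ratio in the 80% portion is 1.74.

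Among peaks with at least 100 ATAC counts, a ratio of at least 4 with a UMI of LINC02055 was found for 3.99% of 100354 peaks, and for 2 of the 2 such peaks in its window. With AC069277.1 it was 4.03% of all peaks and 1 of 1 in the window. With AL356804.1 it was 0.619% of all and 2 of 3 in the window, and with AL683807.1 1.43% of all and 1 of 4. With AC090578.1 it was 1.53% of all peaks, and no peak of its window had 100 counts. Over the spans of the genes, inside or outside the windows, the same rule was met by 4 of 6 peaks for LINC02055, 1 of 1 for AC069277.1, 2 of 4 for AL356804.1, 0 of 1 for AL683807.1 and 2 of 2 for AC090578.1. The sum over all 20 peaks in the span of LINC02055 gave a ratio of 8.91, with the highest ratio, 74.8, in the intron at chr8:136614928-136615891. These counts are small, and the peaks of 1 gene share nuclei.

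The point values of accessibility also rose with the number of UMIs for most of the genes. For AC069277.1 the peaks stood at 0.408 ATAC CPM in nuclei with 0 UMIs, 6.48 with 1, 13.0 with 2, 15.2 with 3 to 5 and 16.1 with 6 or more. For LINC02055 the values were 2.17, 17.1, 21.1, 24.0 and 32.8. AL356804.1 went from 15.7 to 33.7, 55.5, 76.7 and 103, and AL683807.1 from 21.9 to 27.3, 36.1, 53.3 and 57.4. For each of these genes the intervals at 0 and 1 UMI did not overlap. From 1 UMI upward the intervals of neighbouring UMI numbers did overlap. The share of nuclei that belonged to the leading cluster also went up from 0 to 2 UMIs for each gene. For AL356804.1 it went from 9.76% to 40.3% and 63.5%, and for AC069277.1 from 1.92% to 75.4% and 88.7%. From 3 to 5 UMIs to 6 or more it fell for AL356804.1 (95.6% to 91.3%), LINC02055 (89.4% to 88.0%) and AC069277.1 (88.6% to 88.1%). It rose for AL683807.1 (92.7% to 97.0%) and AC090578.1 (92.6% to 97.5%). For AC090578.1 the ATAC values, 7.44, 6.24, 2.94, 6.36 and 8.09, had no order and overlapping intervals.

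**Figure D5:**
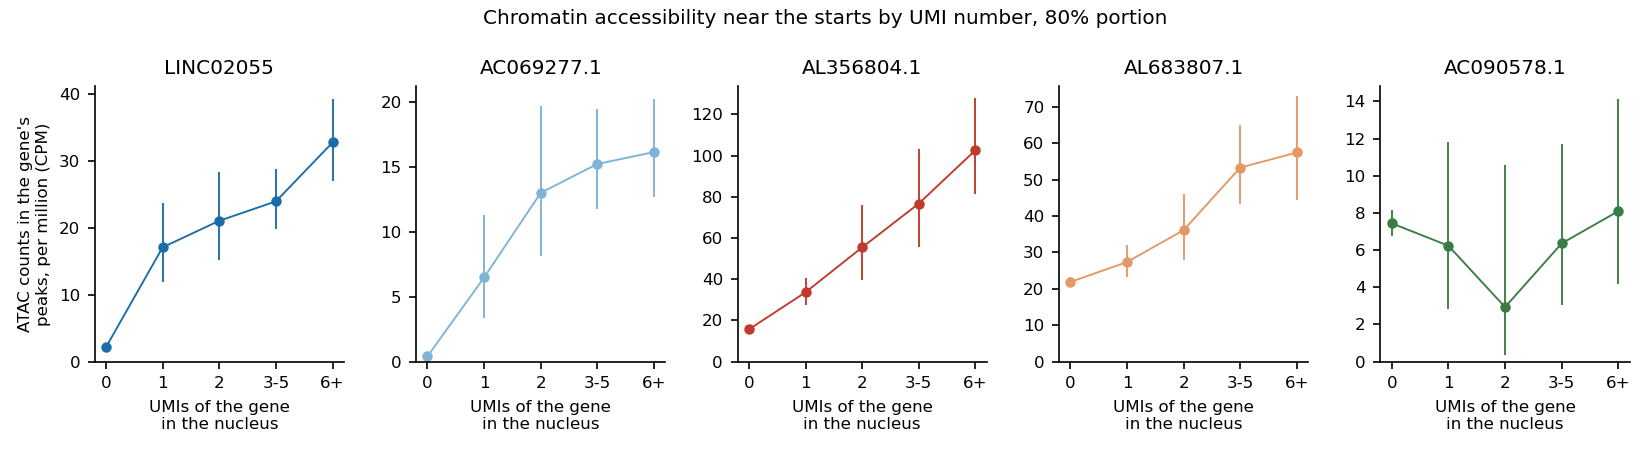
Per-million share of ATAC counts (CPM) in the peaks within 50 kb of the starts, by the number of UMIs of the gene in the nucleus, 80% portion, with exact 95% Poisson intervals. The values go up from 0 to 6 or more UMIs for 4 genes, such as from 15.7 to 103 for AL356804.1, and not for AC090578.1.

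Within the leading cluster the ratios of LINC02055, AC069277.1 and AL356804.1 were below those over all nuclei with no overlap of their intervals, while those of AL683807.1 overlapped. With each peak counted once per nucleus, the intervals of LINC02055 overlapped too. They were 8.84 to 16.7 over all nuclei and 0.975 to 9.50 in cluster 2. In cluster 2 the peaks of LINC02055 stood at 31.0 ATAC CPM in the 1334 positive and 12.6 in the 115 negative nuclei, a ratio of 2.46 (1.23 to 5.76) that rested on 8 counts in negative nuclei and was 0.584 (0.293 to 1.29) in the 20% portion. For AC069277.1 the ratio in cluster 2 was 1.77 (0.740 to 5.51). In cluster 3 AL356804.1 had 1.597 (1.35 to 1.89). In the 20% portion it had 1.74 (1.003 to 2.96), and 1.40 (0.563 to 3.18) with each peak counted once per nucleus. AL683807.1 had 1.42 (1.15 to 1.76) in cluster 3, with 0.770 (0.435 to 1.38) in the 20% portion. The ratios in cluster 3 also include the difference between its ATAC clusters. In cluster 2 of the 20% portion AC069277.1 had 39 counts in positive and 0 in negative nuclei. The lower limit of its ratio was 1.05, and 0.485 with the peak counted once per nucleus. In the 20% portion the windows held fewer peaks, 2 for LINC02055, 1 for AC069277.1, 2 for AL356804.1, 3 for AL683807.1 and 3 for AC090578.1. For AC090578.1 in cluster 4, the 27 negative nuclei had 0 counts in the peaks and the 300 positive nuclei had 22. With the 0 set to a floor of 3 counts the ratio was 0.377, with an exact lower limit of 0.282 and no upper limit. No direction can be read from this. In the 20% portion it was 0.280 (0.0401 to 3.09), on 4 counts in positive and 2 in negative nuclei.

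The nuclei of one gene were also compared at the peaks of the others. At the peaks of AC069277.1 nuclei with LINC02055 had a ratio of 29.4, against 34.2 for nuclei with AC069277.1 itself. At the peaks of LINC02055 nuclei with AC069277.1 had 10.4, against 11.4 for nuclei with LINC02055 itself. At the peaks of AL356804.1 nuclei with AL683807.1 had 3.30, close to the 3.25 of the gene's own positive nuclei. Across groups most values were below 1, such as 0.118 for nuclei with AC090578.1 at the peaks of AC069277.1 (2 counts, interval 0.0142 to 0.433). Nuclei with LINC02055 had 0.522 at those of AL356804.1. Not all cross values were low. At the peaks of AC090578.1 nuclei with AL683807.1 had 2.78 (2.28 to 3.37) and nuclei with AL356804.1 had 2.29 (1.78 to 2.91). Both exceeded the 0.856 of the gene's own positive nuclei. At the peaks of AL683807.1 nuclei with AC090578.1 had 1.40, nuclei with AL356804.1 had 1.41 and the gene's own had 1.68. Nuclei with AC090578.1 had 1.19 (0.971 to 1.44) at the peaks of AL356804.1.

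Neighbouring genes, with starts within 500 kb of those of the lncRNA genes, mostly did not share the pattern around AL356804.1 and AL683807.1. Only those detected in at least 1% of nuclei were compared, which were 8 of 14 near AL356804.1, 8 of 10 near AL683807.1, 1 of 4 near LINC02055 and 1 of 4 near AC069277.1. Around AL356804.1 the 8 detected genes had ratios between positive and negative nuclei from 0.501 for SMOC1, a matrix protein gene, to 1.33 for COX16, an assembly factor of cytochrome c oxidase that overlaps it. Around AL683807.1, 7 of 8 had ratios from 0.626 to 1.10, and the exception was the lncRNA gene AL683807.2, 33229 bp away, at 26.9 (15.0 to 51.8) with 58 nuclei positive for both. Next to AC069277.1 the antisense lncRNA gene GRM7-AS3, which overlaps it, was 108 times (67.2 to 187) higher in nuclei with AC069277.1, with 437 nuclei positive for both and 28.9 CPM in cluster 2. Next to LINC02055, KHDRBS3, an RNA-binding protein gene, was lower in positive nuclei, with a ratio of 0.259, and led in cluster 4. MMP16 was detected in 0.778% of nuclei, and none of the 5 genes near AC090578.1 reached 1%. Some genes below 1% had high ratios on few UMIs, such as AC090578.2 near AC090578.1, at 30.9 on 10 UMIs. Near AC069277.1, GRM7 had 6.38 (3.55 to 11.9) on 56 UMIs and AC026167.1 had 0.195 on 33.

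The genes whose UMIs followed each lncRNA gene most closely were found by Pearson's r of log-normalized values over the 6557 nuclei, among 17976 genes in at least 1% of nuclei. Nuclei share clusters and depth, so r describes likeness over clusters and is given without a test. For LINC02055 the 5 genes were CARD18, an inhibitor of caspase-1 (0.80), the lncRNA gene AC004949.1 (0.79), ITPR2, a calcium channel of the endoplasmic reticulum (0.79), MAGEA4, a cancer-testis antigen (0.75), and the lncRNA gene AC021723.2 (0.75). AC069277.1 shared the first 4 of these, with r from 0.80 to 0.75, and had LINC01019 as the fifth (0.72). The r between LINC02055 and AC069277.1 was 0.79, and 0.72 in the 20% portion. For AC090578.1 they were PIP4K2C, a lipid kinase (0.65), the lncRNA gene AC011632.1 (0.64), LANCL2 (0.63), SEC61G, a subunit of the protein translocon (0.63), and VOPP1 (0.63). LANCL2, SEC61G and VOPP1 are neighbours of EGFR on chromosome 7, and EGFR itself stood at 7241 CPM in cluster 4 against at most 468 in the others.

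For the cluster 3 genes the likeness was weaker. AL683807.1 was closest to DHRS2, a short-chain dehydrogenase (0.56), the zinc finger gene ZNF676 (0.50), IL1RAPL1, a synaptic receptor of the interleukin-1 receptor family (0.48), the transcription factor gene MECOM (0.44) and the lncRNA gene AL445985.2 (0.44). MECOM and IL1RAPL1 were not restricted to cluster 3, with 173 and 135 CPM there and 175 and 80.1 in cluster 4. AL356804.1 was closest to DHRS2 (0.45), the lncRNA genes LINC00624 (0.37), KAZN-AS1 (0.35) and AL445985.2 (0.32), and ZNF676 (0.32). DHRS2 stood at 780 CPM in cluster 3 and at 27.8 or less elsewhere, and ZNF676 at 108 and 3.79 or less. The r between AL356804.1 and AL683807.1 was 0.31. At this sparsity, with 67.0% of positive nuclei at a single UMI of AL356804.1, a low r is no sign that genes differ in their nuclei.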

How the data were processed

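The 5 genes and the gene lists were chosen with earlier results of these data known. The authors deposited counts without normalization, as 1 filtered matrix for each portion with its own peaks, on GRCh38. The submitters' processing notes name Cell Ranger ARC 2.0.0. The sources used here do not state the gene annotation behind these counts. From these counts all 6557 and 1286 barcodes entered. Gene starts were transcript starts of GENCODE v44 inside the deposited range of each gene.

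RNA clusters (Seurat 5.3.0 in R 4.3.3) were made without the 5 genes from 2000 variable genes, 30 components and 20 neighbours by Louvain, at the lowest resolution with at least 5 clusters, 0.05, which also gave 5 clusters with 5 other seeds. ATAC clusters used components 2 to 30 of TF-IDF values. Nuclei of the 20% portion took the cluster of the most correlated mean profile, which returned 97.3% of the 80% nuclei to their own. Scrublet (scanpy 1.11.5) used an expected rate of 0.06. Next-cluster counts under 3 were raised to 3. Sums and intervals used scipy 1.17.1 and were tested on simulated data. The simulated counts were drawn singly and not in pairs, so that check does not cover the intervals of ATAC counts. Named genes and peaks followed a fixed rule: the 5 genes, landmarks, a list of lncRNA genes, neighbours within 500 kb in at least 1% of nuclei, and the 5 most correlated genes. Markers of the sex chromosomes were left out of the last, but other genes of chromosome X, such as MAGEA4 and IL1RAPL1, could enter it. No library had replicates, so no test was made. The matrix of both portions together and the long reads were not used here. The sequences at the starts of AC069277.1 and AL356804.1 are not reported here.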

Additional observations from a re-analysis of the deposited data

How the results depend on the processing

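No paired analysis was possible because each portion gave 1 library of each kind and no test was made. Of 131 alternative values of the main results, 96 stayed within the interval or count rule and 35 moved. The count of 8 pairs below expectation was the same in every alternative run. All of these runs but the 20% portion reused the counts by which the genes were picked, so nothing further is read from that. In the 20% portion the share of positive nuclei with 2 or more genes was 53.0%, against 54.1% with at least 2 UMIs per gene and 41.5% after thinning. The percent of UMIs in the leading cluster (LINC02055, AC069277.1, AL356804.1, AL683807.1 and AC090578.1) was 93.3, 91.9, 61.9, 75.8 and 90.4 in the 20% portion. Without doublet calls it was 98.3, 98.8 and 91.5 for LINC02055, AC069277.1 and AC090578.1. A resolution of 0.8 gave 63.0, 41.5, 71.1 and 84.2 for LINC02055, AC069277.1, AL683807.1 and AC090578.1, and ATAC clusters gave 81.5, 82.6, 67.1 and 65.7 for the first 4.

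The ATAC ratio near the start moved for LINC02055 to 15.0 without doublet calls, 18.1 in the 20% portion and 30.9 within 10 kb. For AL356804.1 it was 1.94 in the 20% portion, 4.75 with at least 2 UMIs, 2.10 within 100 kb and 2.82 with each peak once per nucleus. For AL683807.1 it was 2.14 with at least 2 UMIs, 1.22 within 10 kb and 1.46 within 100 kb. For AC090578.1 it passed 1, at 1.86 in the 20% portion, 3.53 with all starts of GENCODE v44 and 1.39 over the whole range of starts, the last 2 being chosen after seeing the data. Within the leading cluster AL356804.1 had 1.92 with at least 2 UMIs, and AL683807.1 and LINC02055 went below 1 in the 20% portion, at 0.770 and 0.584. The 20% portion had its own peaks, fewer in each of these windows. The cause of these moves was not tested. The number of ATAC counts in nuclei negative for a gene inside its leading cluster, from 0 to 8 in clusters 2 and 4, limits the ratios there.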
